A study of Mus musculus with 6 samples.

Results

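Translation initiation factor genes were taken as the platform gene symbols that begin with Eif and a digit from 1 to 6, and 49 such protein-coding genes were measured among 22180 genes on Affymetrix whole-transcript arrays. RNA came from the tibialis anterior, the muscle that lifts the foot, in male C57Bl/6 mice 18 weeks old. The castrated group (n = 3) had its testes removed at 11 weeks of age and is labelled refed, and the sham group (n = 3) had a sham operation at the same age and is labelled fasted, with 7 weeks of recovery in both. All mice were without food overnight and again for the last 4 hours. The series design describes a 30-minute meal for some mice only, while the protocol given with each sample describes it for all. Surgery and the feeding label therefore cannot be told apart, and every difference below is castrated and refed minus sham and fasted. No label says more of how the mice were chosen or whether they shared a litter or cage, and the p-values therefore cover only the spread among these 6 arrays.

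Translation initiation brings the initiator tRNA, the mRNA and the ribosomal subunits together at a start codon. The factor eIF2 carries the initiator tRNA, and its exchange factor eIF2B recharges it with GTP. Kinases that phosphorylate eIF2 block that step during stress. The complex of eIF4E, eIF4G and eIF4A recruits mRNA through its cap, and the eIF4E-binding proteins hold eIF4E back until mTORC1, a kinase that senses insulin and amino acids, phosphorylates them. In skeletal muscle this control is known for its response to feeding, contraction and anabolic hormones. An array measures the RNA of these genes, not the phosphorylation through which most of the control acts.

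The genes were grouped by factor, with 4 for eIF1 and eIF1A, 4 for eIF2 with eIF2A and eIF2D, 5 for eIF2B, 4 for eIF2 kinases, 12 for eIF3, 6 for eIF4A with eIF4B and eIF4H, 5 for eIF4E and its transporter, 2 for the eIF4E-binding proteins, 2 for eIF4G, 4 for eIF5 and 1 for eIF6. Of the 56 protein-coding symbols of this form in the RefSeq gene table, 7 (Eif1, Eif2s1, Eif2s3x, Eif3g, Eif3j2, Eif4ebp3 and Eif4g1) had no probe set naming that gene alone and were not analysed here as genes. The pseudogene Eif1-ps3 and the non-coding Argonaute relative Eif2c5 carry matching symbols, and both were kept out of all counts (log2 differences of −0.18 and 0.23, limma adjusted p = 0.786 and 0.770). Because bulk muscle was measured, fewer cells of a type and less RNA per cell cannot be told apart.

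The arrays had median log2 values of 5.40 to 5.47 over genes and had pairwise correlations of 0.9904 to 0.9924 inside the groups and 0.9895 to 0.9916 across them. All 9 skeletal muscle markers, such as Ckm and Acta1, lay at or above the 99.6th percentile of mean level. The liver markers Alb and Apoa1 lay at the 22.9th and 53.6th, and the brain markers Gfap and Syn1 at the 43.3rd and 56.4th. Markers of other tissues thus reached the middle of the scale. Slow-fibre markers were higher in castrated muscle for 6 of 6 genes and tendon markers for 6 of 7, and their summed levels overlapped. On the log2 scale the slow-fibre sum was 8.65 to 9.93 in castrated and 8.52 to 8.96 in sham samples, and the tendon sum was 11.37 to 11.66 in castrated and 10.67 to 11.58 in sham samples. Castrated sample 1 stood apart for the slow-fibre markers. Their median, with each gene centred on its mean, was 0.91, −0.23 and −0.29 in castrated samples, against −0.098, −0.32 and −0.16 in sham samples. The same array had the lowest median over initiation factor genes. Without it 33 of 49 of those genes lay lower (median −0.062 log2), and the eIF2B median was −0.16. The part of slow-fibre and tendon signal in the results was not tested. None of the 3 erythroid markers listed was measured, and low array signal was not told apart from background.

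Promoters of the eIF2B genes Eif2b1, Eif2b2, Eif2b4 and Eif2b5 and of the eIF2 kinase Eif2ak2 are shown, because all eIF2B genes lay on the lower side and Eif2ak2 had the widest gap between groups. Eif2b3 is not among them. Sequences are from RefSeq, build GRCm38.p6, and span the 250 bases before the transcription start that the sequence table uses, 5′ to 3′ on the strand of the gene. That start is the annotated gene start for each but Eif2b5, whose window reaches 22 bases into the annotated gene. Their positions are chr17:78882573-78882822 (minus) for Eif2ak2, chr5:124579132-124579381 (minus) for Eif2b1, chr12:85219231-85219480 (plus) for Eif2b2, chr5:31193140-31193389 (minus) for Eif2b4 and chr16:20498567-20498816 (plus) for Eif2b5. Capitals mark a CCAAT box on either strand.
Eif2ak2: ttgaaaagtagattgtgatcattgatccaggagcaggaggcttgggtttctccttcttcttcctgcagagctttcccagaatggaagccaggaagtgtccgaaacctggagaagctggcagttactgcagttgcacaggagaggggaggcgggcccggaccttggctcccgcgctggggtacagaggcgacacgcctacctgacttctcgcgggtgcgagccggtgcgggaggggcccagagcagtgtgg
Eif2b1: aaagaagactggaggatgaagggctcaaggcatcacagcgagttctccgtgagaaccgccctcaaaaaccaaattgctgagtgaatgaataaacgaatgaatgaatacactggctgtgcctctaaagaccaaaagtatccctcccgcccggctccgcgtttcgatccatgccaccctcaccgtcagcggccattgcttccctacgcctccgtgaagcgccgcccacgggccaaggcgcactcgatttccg
Eif2b2: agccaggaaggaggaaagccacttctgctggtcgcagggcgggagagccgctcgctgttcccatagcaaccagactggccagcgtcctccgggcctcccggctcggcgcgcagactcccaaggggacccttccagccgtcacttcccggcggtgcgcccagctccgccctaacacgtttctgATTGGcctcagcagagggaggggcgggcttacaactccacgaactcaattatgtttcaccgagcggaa
Eif2b4: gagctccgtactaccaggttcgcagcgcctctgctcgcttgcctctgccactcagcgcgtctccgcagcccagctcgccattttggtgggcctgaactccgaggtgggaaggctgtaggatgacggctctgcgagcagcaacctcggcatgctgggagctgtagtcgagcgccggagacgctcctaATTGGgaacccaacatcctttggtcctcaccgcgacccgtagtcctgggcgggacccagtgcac
Eif2b5: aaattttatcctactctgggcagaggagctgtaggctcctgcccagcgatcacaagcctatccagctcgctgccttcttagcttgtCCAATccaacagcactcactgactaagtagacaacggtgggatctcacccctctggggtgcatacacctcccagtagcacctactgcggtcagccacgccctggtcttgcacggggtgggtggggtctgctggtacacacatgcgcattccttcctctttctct

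Motifs were searched on both strands of the 250-base windows, of which 52 belonged to 39 of the 49 genes. The CCAAT box (CCAAT), a common promoter element, began 68 bases before the start in Eif2b2, 64 in Eif2b4 and 164 in Eif2b5, which is 142 bases before the annotated gene start of Eif2b5. It was in 26.9% of the initiation factor windows and in 33.8% of all 32851 windows. Some genes have more than 1 window, and by gene it was in 14 of 39 (35.9%). The E-box (CACGTG), a site of MYC and of clock factors, was in 19.2% of initiation factor windows, those of Eif1b, Eif3f, Eif3k, Eif4a1, Eif4e, Eif4h, Eif5a and Eif5a2, and in 6.02% of all windows. None of the 5 promoters printed held it. The androgen response element half-site (AGAACA) was in 9.62% of initiation factor windows (5 of 39 genes, or 12.8%) and 16.1% of all windows. The interferon-stimulated response element core (GAAANNGAA) was in 1.92% of initiation factor windows and 7.13% of all windows. For the ETS site (CCGGAAGT) the shares were 9.62% and 2.88%, and for the NRF1 site (GCATGCGC) 3.85% and 2.26%. Apart from CCAAT, the 5 promoters printed held none of these letters. A match is a description of these letters and not a bound site.

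No initiation factor gene passed the threshold over all genes. With limma and Benjamini-Hochberg adjustment, 0 of 49 had an adjusted p under 0.05, where 0.0135% of all genes did, and the smallest adjusted p was 0.521, for Eif2ak2. Unadjusted p fell under 0.05 for 5 of the 49, against 7.13% of all genes. Of these, 4 were lower in castrated muscle (Eif2ak2, Eif2b3, Eif4ebp1 and Eif2b4), against 3.51% of all genes, and 1 was higher (Eif4a3l1), against 3.62%. Leaving out castrated sample 1 left 2 such genes, and leaving out castrated sample 2, castrated sample 3 or sham sample 1 left 3. Over all 22180 genes the numbers in these 4 settings were 1326, 1480, 1326 and 1488. Standard errors ran from 0.090 to 0.18 on the log2 scale, with a median of 0.10. The 95% interval of the difference lay within ±0.5, or 1.41-fold, for 43 of 49 genes. It reached further for Eif2ak2, Eif4a3, Eif4a3l1, Eif4e1b, Eif4ebp1 and Eif4enif1. These intervals are not adjusted for the number of genes.

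**Figure D1:**
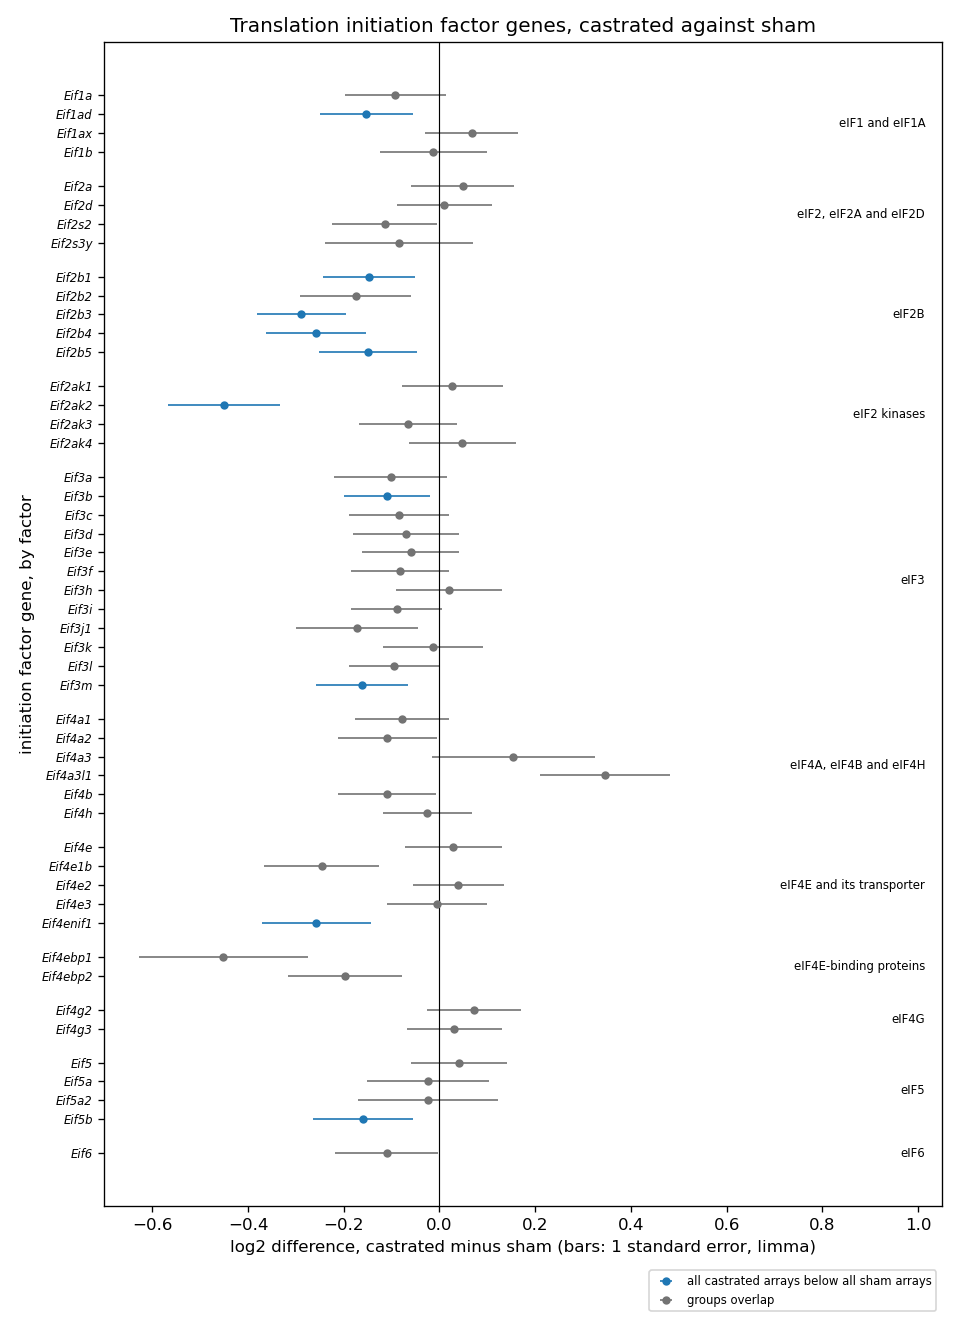
Log2 difference (castrated minus sham) of each initiation factor gene on the horizontal axis with 1 standard error from limma, and genes by factor on the vertical axis (n = 3 arrays each). Blue points are the 10 genes whose castrated arrays all lay below all sham arrays; 36 of 49 points lie left of 0 in the deposited values (31 after quantile or cyclic loess normalization), and none passed over all genes.

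Small differences lay mostly on the lower side. In castrated muscle 36 of 49 genes had a lower mean (73.5%), against 51.5% of all genes, and the median log2 difference was −0.085, a change of −5.69% on the linear scale, against −0.0056 for all genes. Most initiation factor genes are bright, and bright genes as a whole were lower more often. Among the 11090 genes over the 50th percentile of mean level 59.2% were lower, with a median of −0.030, and of the 47 initiation factor genes in that range 34 were lower. Between-array scaling moved the split. After quantile normalization 31 of 49 (63.3%) were lower, against 50.2% of all genes, and after cyclic loess 31 of 49, against 50.4%, with medians of −0.052 in both.

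**Figure D2:**
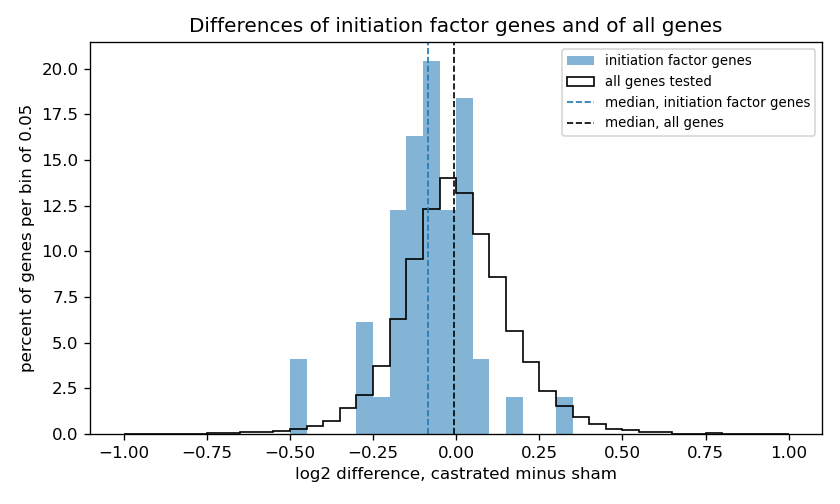
Distribution of log2 differences (castrated minus sham) in bins of 0.05, as percent of the 49 initiation factor genes (filled) and of the 22180 genes tested (outline), with dashed lines at the medians of −0.085 and −0.0056. Genes beyond 1 in either direction are not drawn.

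All 3 castrated arrays lay below all 3 sham arrays for 10 genes and above them for 0. Over all genes the groups did not overlap for 12.8%, with castrated below for 7.02% and above for 5.73%. Among genes over the 50th percentile of mean level castrated lay below for 10.0%, and all 10 of these genes are in that range. They are Eif1ad, Eif2ak2, Eif2b1, Eif2b3, Eif2b4, Eif2b5, Eif3b, Eif3m, Eif4enif1 and Eif5b. The gap between the nearest castrated and sham arrays was 0.21 for Eif2ak2, 0.18 for Eif2b3 and 0.11 for Eif2b4, and only 0.0036 for Eif5b, 0.013 for Eif3m and 0.015 for Eif2b5. The count of 10 was 9 after quantile normalization, 8 after cyclic loess and 11 after median centring. It was 17 without sham sample 2 and 18 without sham sample 3, where fewer arrays make a separation easier. The share over all genes was not taken under these settings. Per array, with each gene centred on its mean over the arrays, the median over the 49 genes was −0.086, −0.014 and −0.027 in castrated samples, against 0.070, −0.0014 and 0.022 in sham samples. The lowest value was that of castrated sample 1 and the highest that of sham sample 1, while castrated sample 2 and sham sample 2 differed by little.

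**Figure D3:**
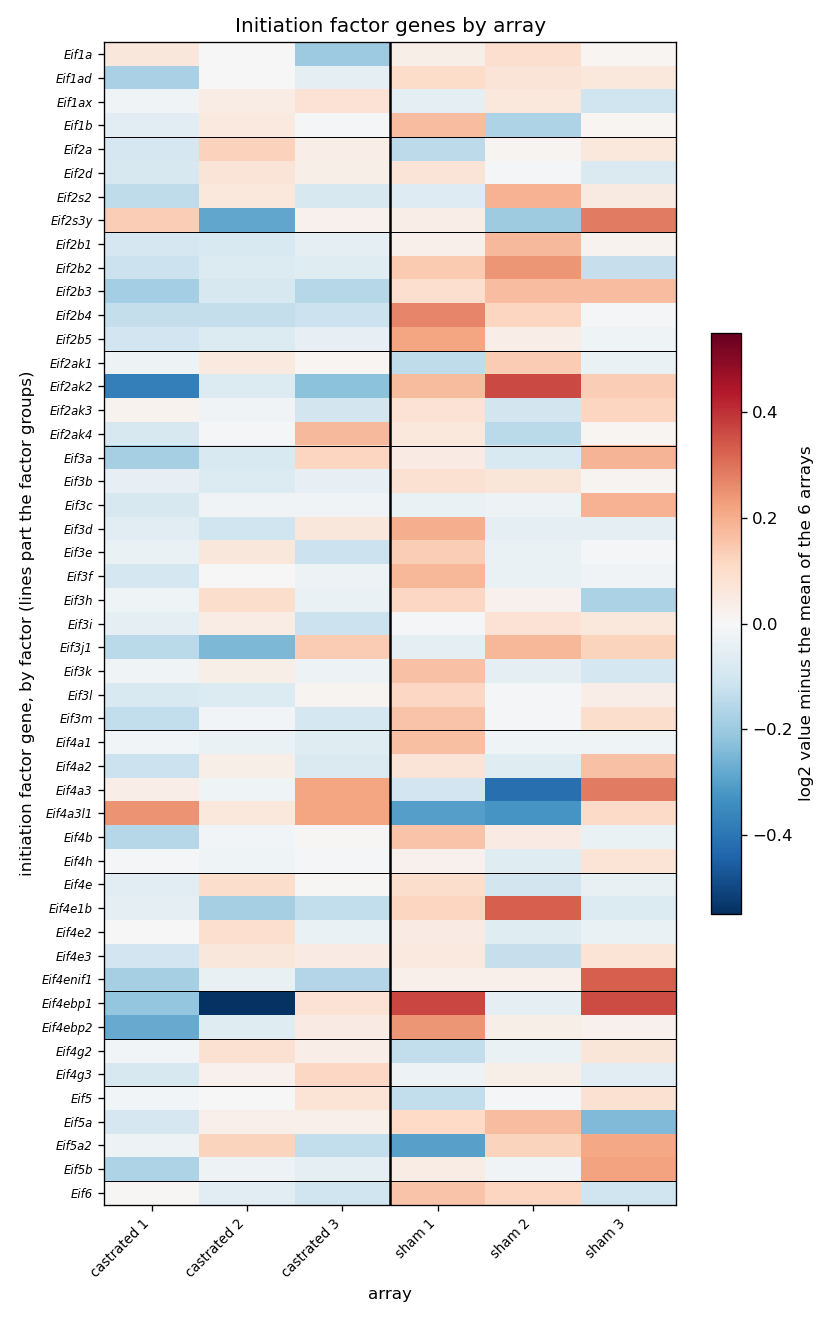
Log2 value minus the mean of the 6 arrays (colour) for each initiation factor gene (rows, by factor) on each array (columns, castrated left of the line and sham right of it). The 5 eIF2B genes are blue on all castrated arrays, and Eif4ebp1 has the widest spread among the castrated arrays (SD 0.31), Eif4a3 among the sham arrays (SD 0.35).

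The 5 subunits of eIF2B, the exchange factor that reactivates eIF2, were all lower in castrated muscle, with differences from −0.29 to −0.15 and a median of −0.17, a change of −11.4%. All 5 stayed lower after quantile normalization, median centring and cyclic loess. Eif2b3 (Entrez 108067) encodes the gamma subunit, which forms the catalytic part with epsilon. Its log2 values were 6.70, 6.80 and 6.73 in castrated muscle, against 6.98, 7.06 and 7.06 in sham muscle. The groups did not overlap, and the arrays of each group lay close together (6.74 ± 0.051 in castrated, 7.03 ± 0.049 in sham; SD, n = 3 each). The difference was −0.29 (standard error 0.093), or 1.22-fold, with limma adjusted p = 0.658. Eif2b4 (Entrez 13667), the regulatory delta subunit, stood at 6.36, 6.36 and 6.37 in castrated muscle, against 6.76, 6.61 and 6.48 in sham muscle. Castrated arrays were nearly identical and sham arrays spread upward from them. The difference was −0.26 (standard error 0.10, limma adjusted p = 0.687).

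The other eIF2B subunits differed by less. Eif2b1 (Entrez 209354), the alpha subunit, had 7.79, 7.80 and 7.83 in castrated muscle, against 7.91, 8.06 and 7.90 in sham muscle (difference −0.15, standard error 0.096, limma adjusted p = 0.792). Eif2b5 (Entrez 224045), the epsilon subunit with the exchange activity, had 7.40, 7.43 and 7.46 in castrated muscle, against 7.72, 7.54 and 7.48 in sham muscle (difference −0.15, standard error 0.10, limma adjusted p = 0.800). Both were separated, Eif2b5 barely so. Eif2b2 (Entrez 217715), the beta subunit, had 7.11, 7.15 and 7.16 in castrated muscle, against 7.37, 7.47 and 7.10 in sham muscle. Sham sample 3 overlapped the castrated arrays for this gene. Sham sample 3 was also the lowest sham array for Eif2b1, Eif2b4 and Eif2b5. Without it the median of the eIF2B genes was −0.27, and over all 6 left-out samples it ran from −0.27 to −0.16. Single subunits then ran from −0.33 to −0.079. The per-array centred median was −0.12, −0.080 and −0.066 in castrated samples, against 0.15, 0.17 and −0.0096 in sham samples. Without the eIF2B genes, 31 of the remaining 44 initiation factor genes were lower, with a median of −0.074.

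Measured subunits of eIF2 were lower by small amounts with overlapping groups, and the other carriers of initiator tRNA were slightly higher. Eif2s2 (Entrez 67204), the beta subunit of eIF2, had 6.65, 6.85 and 6.70 in castrated muscle, against 6.72, 6.98 and 6.84 in sham muscle (difference −0.11, standard error 0.11). Eif2s3y, the Y-linked copy of the gamma subunit gene, differed by −0.085 and varied widely, from 8.35 to 8.77 in castrated and from 8.44 to 8.92 in sham samples. A probe set shared by its X-linked counterpart Eif2s3x and a gene model had means of 6.44 in castrated and 6.57 in sham samples, and a dimmer shared set differed by −0.14. Eif2a, a separate factor that can deliver initiator tRNA without GTP, differed by 0.048, and Eif2d, which acts in non-canonical initiation and recycling, by 0.010. The group median was −0.037, and it turned to 0.0053 after quantile normalization and 0.0029 after cyclic loess.

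Of the 4 eIF2 kinases, Eif2ak2 alone differed by more than 0.1 in its one-gene probe set. Eif2ak2 (Entrez 19106) encodes PKR, which double-stranded RNA activates and interferon induces. It had log2 values of 5.26, 5.56 and 5.41 in castrated muscle, against 5.81, 6.00 and 5.77 in sham muscle. The groups were the furthest apart of all 49 genes. The mean level of Eif2ak2 lay at the 54.2nd percentile, beside the liver marker Apoa1 (53.6th) and the brain marker Syn1 (56.4th). Whether its signal exceeds background was not tested. The means were 5.41 ± 0.15 in castrated and 5.86 ± 0.12 in sham samples (SD, n = 3 each), so castrated was 1.37-fold lower (difference −0.45 log2 with a standard error of 0.12, 95% interval −0.71 to −0.19, limma adjusted p = 0.521). Its adjusted p was 0.162 when genes under the 50th percentile were left out, the smallest over its alternatives, which ran up to 0.770. With a sample left out the difference ran from −0.52 to −0.38.

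The other kinases sense other stresses. Eif2ak3, the endoplasmic reticulum kinase PERK, had 6.00, 5.96 and 5.88 in castrated muscle, against 6.06, 5.88 and 6.10 in sham muscle. Eif2ak4, the amino acid sensor GCN2, had 5.69, 5.77 and 5.96 in castrated muscle, against 5.84, 5.63 and 5.79 in sham muscle. For both genes the groups overlapped, with differences of −0.065 (95% interval −0.30 to 0.17) and 0.048 (95% interval −0.21 to 0.30). The mean levels of Eif2ak3 and Eif2ak4 lay at the 60.4th and 56.9th percentile, and whether their signal exceeds background was not tested. Eif2ak1, the haem-regulated kinase HRI, differed by 0.027. A probe set shared by Eif2ak1 and Aimp2 differed by 0.13. A test of the difference between kinases was not run.

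**Figure D4:**
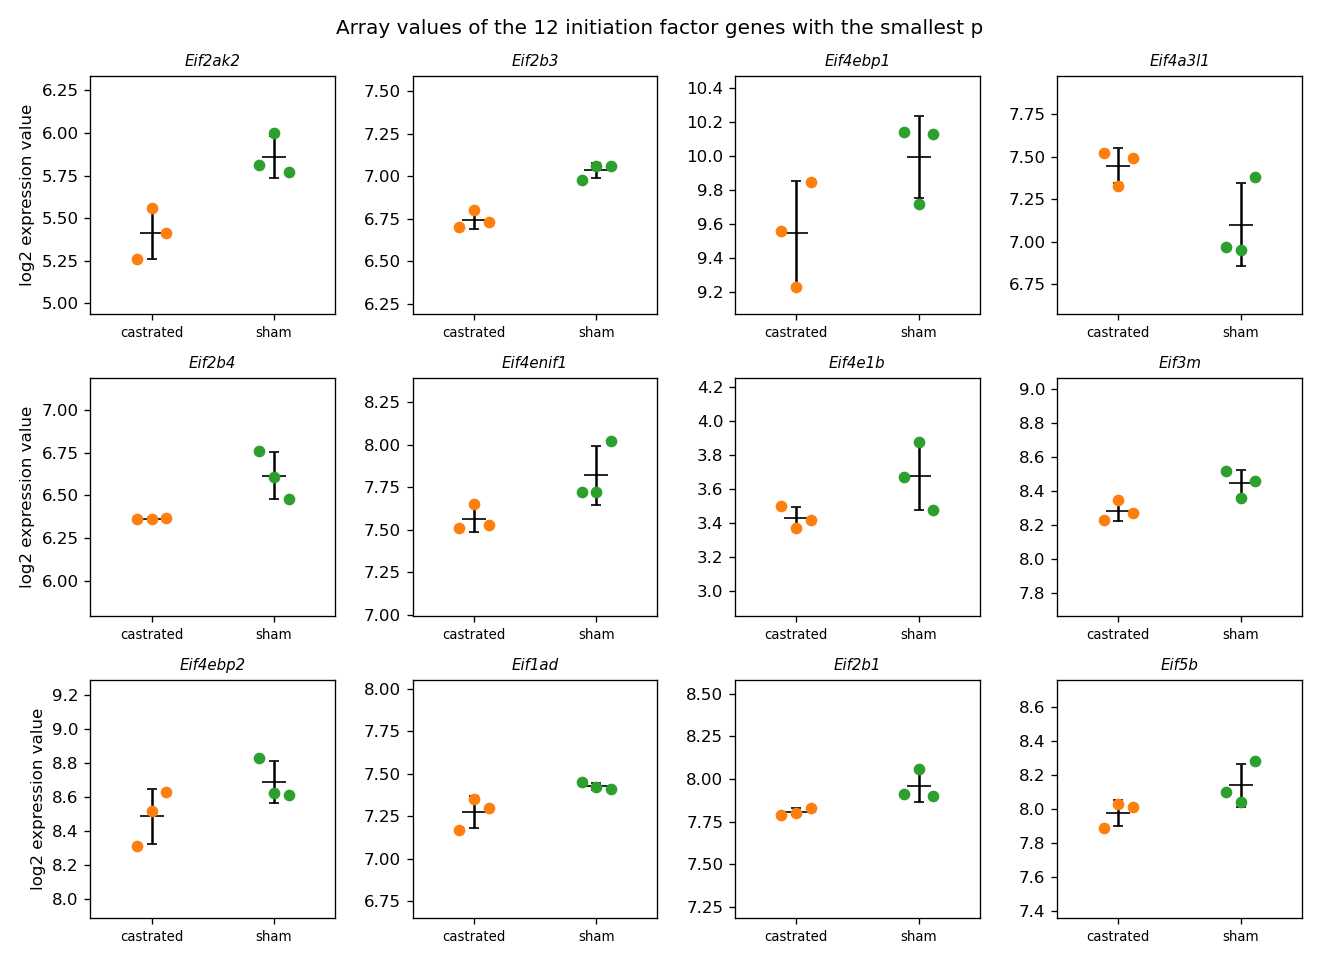
Log2 expression values on each array (points) with the mean and SD (black, n = 3) in castrated (left) and sham (right) samples, for the 12 initiation factor genes with the smallest unadjusted p, on axes of equal height. Eif2ak2 and Eif2b3 show the widest gaps, and Eif4ebp1 overlaps through castrated sample 3 at 9.85 and sham sample 2 at 9.72.

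The eIF4E-binding proteins, which keep eIF4E from eIF4G when they lack phosphate, were lower on average in castrated muscle with wide spread. Eif4ebp1 (Entrez 13685) had 9.56, 9.23 and 9.85 in castrated muscle, against 10.14, 9.72 and 10.13 in sham muscle. Castrated sample 3 lay above sham sample 2, so the groups overlapped. The SD was 0.31 in castrated and 0.24 in sham samples (n = 3 each). Castrated was 1.37-fold lower on average (difference −0.45 log2 with a standard error of 0.18, limma adjusted p = 0.685). Without 1 sample the difference was between −0.60 and −0.29. Eif4ebp2 (Entrez 13688) had 8.31, 8.52 and 8.63 in castrated muscle, against 8.83, 8.62 and 8.61 in sham muscle (difference −0.20, standard error 0.12, limma adjusted p = 0.780). Castrated sample 3 again overlapped the sham arrays. A probe set shared by Eif4ebp3 and Ankhd1 had means of 6.13 in castrated and 6.03 in sham samples, and what part of it is Eif4ebp3 was not tested.

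Among the cap-binding genes, Eif4e, Eif4e2 and Eif4e3 differed by at most 0.039, and Eif4e1b, the dimmest, by more. Eif4e (Entrez 13684), the cap-binding protein, had 9.21, 9.37 and 9.28 in castrated muscle, against 9.37, 9.17 and 9.23 in sham muscle. The groups overlapped, and the difference was 0.029 with a 95% interval from −0.20 to 0.26. Eif4e2, a cap-binding protein known for repressing translation, differed by 0.039, and Eif4e3, another family member, by −0.0050, which turned to 0.032 after quantile normalization and 0.037 after cyclic loess. Eif4enif1 (Entrez 74203), the eIF4E transporter that carries eIF4E into the nucleus and to RNA granules, had 7.51, 7.65 and 7.53 in castrated muscle, against 7.72, 7.72 and 8.02 in sham muscle. Its groups did not overlap, and sham sample 3 stood above the rest (difference −0.26, standard error 0.11, limma adjusted p = 0.703). Without sham sample 3 its difference was −0.16. Eif4e1b, known from oocytes, had 3.50, 3.37 and 3.42 in castrated and 3.67, 3.88 and 3.48 in sham samples. The groups just overlapped (difference −0.25, standard error 0.12, limma adjusted p = 0.735). These values lay well under the array medians, and whether they exceed background was not tested.

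Of the eIF4G family 2 genes were measured, and Eif4g1 had no probe set naming it alone. These scaffold genes were the only group of 2 or more with all measured members higher in castrated muscle, by very little. Eif4g2 (Entrez 13690), also called DAP5, a relative that lacks the eIF4E-binding part, had 11.36, 11.46 and 11.41 in castrated muscle, against 11.24, 11.34 and 11.44 in sham muscle. Groups overlapped, with a difference of 0.072 (95% interval −0.15 to 0.30, limma adjusted p = 0.911). Eif4g3 differed by 0.031, and by −0.018 to 0.082 with a sample left out.

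Helicase genes of the eIF4A group were lower by small amounts except for Eif4a3 and its copy. Eif4a1 (Entrez 13681), the main RNA helicase of cap-dependent initiation, had 13.33, 13.31 and 13.28 in castrated muscle, against 13.51, 13.32 and 13.32 in sham muscle. Sham sample 1 stood above the other 5 arrays, which lay within a narrow range. The difference was −0.078, and −0.016 without sham sample 1. A second, dimmer Eif4a1 probe set differed by −0.23 (unadjusted p = 0.0774). Eif4a2 (Entrez 13682), the second helicase form, had 9.93, 10.08 and 9.97 in castrated muscle, against 10.12, 9.98 and 10.21 in sham muscle, a difference of −0.11. Its other one-gene probe sets differed by −0.056 and −0.19. Probe sets that Eif4a2 shares with Snord2, Snora81 and Rfc4 differed by −0.034, 0.059 and 0.097. The helicase cofactor Eif4b (Entrez 75705) had 9.97, 10.11 and 10.13 in castrated muscle, against 10.28, 10.17 and 10.09 in sham muscle, also −0.11, and its relative Eif4h differed by −0.025, which turned to 0.011 after quantile normalization and 0.012 after cyclic loess.

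Eif4a3l1 (Entrez 668137), named as a like gene of Eif4a3, the helicase of the exon junction complex, was the initiation factor gene with the largest positive difference. It had 7.52, 7.33 and 7.49 in castrated muscle, against 6.97, 6.95 and 7.38 in sham muscle. Sham sample 3 overlapped the castrated arrays (difference 0.35, standard error 0.14, limma adjusted p = 0.685). Eif4a3 itself differed by 0.15, with 5.27 to 5.97 in sham samples. A probe set that names Eif4a3, Eif4a3l1 and a gene model together had means of 8.07 in castrated and 8.13 in sham samples, a difference of −0.056. The 3 probe sets disagree in direction, and signal shared between these copies was not tested, so the value of Eif4a3l1 is uncertain.

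The eIF3 complex, which binds the small ribosomal subunit and joins it to the mRNA-bound factors, had 11 of 12 measured subunits lower in castrated muscle, with a median of −0.087. Eif3k, lower by −0.013, turned to 0.011 after quantile normalization and 0.027 after cyclic loess. Of the core subunits built from PCI and MPN domains, Eif3a (Entrez 13669), the largest scaffold, had 9.99, 10.09 and 10.29 in castrated muscle, against 10.22, 10.09 and 10.36 in sham muscle. The groups overlapped, with a difference of −0.10. Eif3m (Entrez 98221) had 8.23, 8.35 and 8.27 in castrated muscle, against 8.52, 8.36 and 8.46 in sham muscle, and its groups were just separated (difference −0.16, standard error 0.097, limma adjusted p = 0.780). Eif3f (Entrez 66085), which in mouse muscle is known as a target of the ubiquitin ligase Fbxo32, had 9.32, 9.42 and 9.39 in castrated muscle, against 9.60, 9.38 and 9.40 in sham muscle. Sham sample 1 alone stood high, and the difference was −0.083, or −0.013 without that sample. The remaining core subunits Eif3c, Eif3e, Eif3h, Eif3k and Eif3l had differences from −0.094 to 0.020.

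The measured peripheral eIF3 subunits were also lower in their one-gene probe sets, with overlapping groups for all but Eif3b. Eif3b, which with Eif3g and Eif3i forms the module conserved in yeast, had 9.11, 9.08 and 9.11 in castrated muscle, against 9.24, 9.22 and 9.17 in sham muscle. Its groups did not overlap and both were tight (9.10 ± 0.017 in castrated, 9.21 ± 0.035 in sham; SD, n = 3 each), for a difference of −0.11 (standard error 0.090, limma adjusted p = 0.837). Eif3i differed by −0.090, Eif3d, a subunit that can bind caps, by −0.070, and the loosely attached Eif3j1 by −0.17. A probe set shared by Eif3j1 and Eif3j2 differed by 0.070. The per-array centred median of the 12 genes was −0.071, −0.017 and −0.028 in castrated samples, against 0.12, −0.017 and 0.025 in sham samples, so castrated sample 2 and sham sample 2 met.

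**Figure D5:**
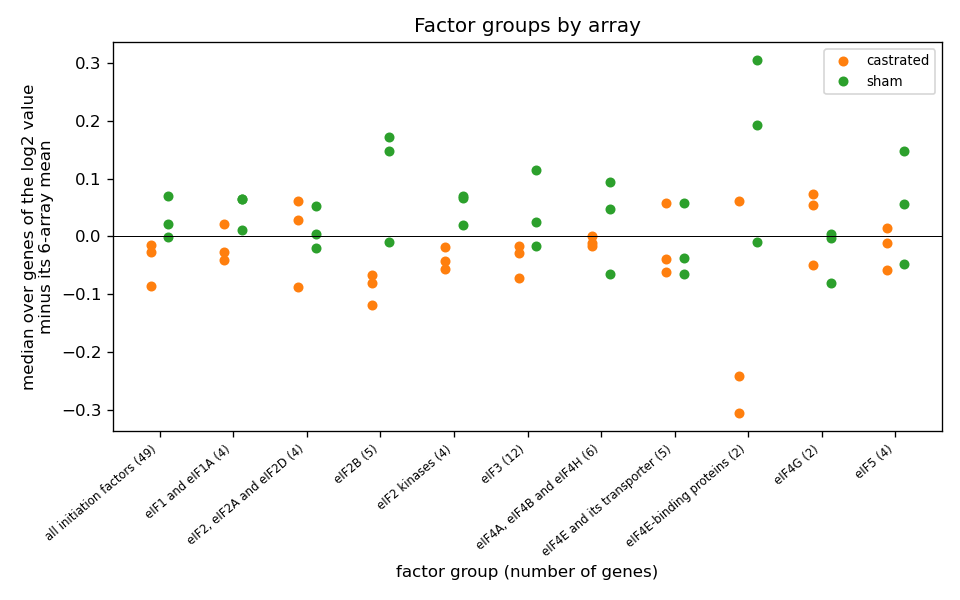
Median over the genes of a factor group of the log2 value minus its 6-array mean, for each castrated (orange) and sham (green) array, by factor group with the number of genes. The eIF2B points of castrated samples lie between −0.12 and −0.066, below all sham points (−0.0096 to 0.17). The eIF2 kinases (castrated −0.057 to −0.019, sham 0.019 to 0.069) and all initiation factors together are also separated, while the eIF4E, eIF4A and eIF5 groups overlap. Of the 4 kinases 2 were lower and 2 higher, with a median difference of −0.019, and only Eif2ak2 had separated groups.

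Genes of start-site selection and subunit joining differed little. Eif1ad (Entrez 69860), which carries an eIF1A-like domain, had 7.17, 7.35 and 7.30 in castrated muscle, against 7.45, 7.42 and 7.41 in sham muscle (difference −0.15, standard error 0.096, limma adjusted p = 0.786). Its groups did not overlap. Eif1a, Eif1ax and Eif1b, close relatives of the scanning factors eIF1A and eIF1, differed by −0.092, 0.067 and −0.013, the last turning to 0.015 after quantile normalization and 0.028 after cyclic loess. Eif5 (Entrez 217869), which triggers GTP hydrolysis by eIF2, had 10.13, 10.15 and 10.22 in castrated muscle, against 10.01, 10.14 and 10.23 in sham muscle. The groups overlapped throughout (difference 0.040, 95% interval −0.19 to 0.27).

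Eif5b (Entrez 226982), the GTPase of subunit joining, had 7.89, 8.03 and 8.01 in castrated muscle, against 8.10, 8.04 and 8.28 in sham muscle (difference −0.16, standard error 0.11, limma adjusted p = 0.792). Castrated sample 2 and sham sample 2 were almost level. Eif5a (Entrez 276770), the hypusine-bearing factor that also acts in elongation, had 8.26, 8.38 and 8.38 in castrated muscle, against 8.46, 8.52 and 8.11 in sham muscle, with a difference of −0.024 that turned to 0.0097 after quantile normalization and 0.018 after cyclic loess. Its paralogue Eif5a2 differed by −0.024 at a level close to the array medians. Eif6 (Entrez 16418), which keeps the large ribosomal subunit from joining early and is known from mouse liver and muscle for its link to insulin, had 7.90, 7.83 and 7.78 in castrated muscle, against 8.05, 8.01 and 7.78 in sham muscle. Sham sample 3 overlapped the castrated arrays (difference −0.11, standard error 0.11, limma adjusted p = 0.862).

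Other genes of translation were read from lists chosen by function, and 0 of their measured genes passed over all genes. For comparison, 51.5% of all genes were lower. Over the 50th percentile of mean level 59.2% of genes were lower, with a median of −0.030. Of 15 elongation and termination genes 13 were lower, with a median of −0.074, or −0.044 without castrated sample 2 and −0.041 without sham sample 1. Eef2k, the kinase that restrains elongation factor 2, differed by −0.25 with overlap (−0.12 without castrated sample 1), and Dhps, which starts the hypusine modification of eIF5A, by −0.15 without overlap. Of 18 accessory and poly(A)-binding genes 13 were lower. Their median of −0.031, near that of genes over the 50th percentile, turned to 0.0054 after cyclic loess and 0.0088 without sham sample 3. Their members with the smallest p were Mcts1, a reinitiation factor (0.23, or 0.12 without sham sample 2), and the RNA helicase Ddx3x (−0.17, or −0.099 without sham sample 3). Of 9 mitochondrial translation factors 8 were lower, with a median of −0.11, or −0.047 without sham sample 3. The smallest p values were those of the elongation factor Tufm (−0.24) and the release factor Mtrf1l (−0.22), both with overlapping groups. Tufm differed by only −0.043 when its probe sets were averaged, and Mtrf1l by −0.12 without sham sample 3.

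Genes that act on initiation factors included both directions. Among 22 measured mTORC1 and MNK genes 12 were lower. Their median of −0.029 turned to 0.00076 after cyclic loess and 0.012 without castrated sample 1. It lay near the −0.030 of all genes over the 50th percentile of mean level. Mknk2, a kinase that phosphorylates eIF4E, had 11.09, 10.79 and 11.04 in castrated muscle, against 11.37, 11.19 and 11.31 in sham muscle. Its groups did not overlap (difference −0.32, standard error 0.11, limma adjusted p = 0.668). Ddit4, an inhibitor of mTORC1, differed by 0.58 with overlapping groups. Of 12 genes around eIF2 phosphorylation 11 were lower, with a median of −0.10, or −0.058 without sham sample 3. Their centred median was 0.22 in that sample, against 0.019 and −0.023 in the other sham samples. Ppp1r15a, a regulatory subunit of the phosphatase acting on eIF2, had 6.69, 6.59 and 6.93 in castrated muscle, against 7.37, 7.23 and 7.35 in sham muscle. Its difference was −0.58 (standard error 0.12, limma adjusted p = 0.395). Atf5, a transcription factor whose translation rises when eIF2 is phosphorylated, differed by −0.20, also without overlap, and by −0.086 without sham sample 3. Earlier results of these data had used some of these regulatory genes, so their values are no separate support.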

How the data were processed

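Each deposited number is the log2 expression of 1 probe set on 1 array, already normalized by the authors. Per the submitters' processing notes the software was Partek. How background was corrected and probes were summarized and normalized is not given in the sources used here. Normalization can compress small differences. Arrays have no read depth, so their number limits precision.

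Of 41345 probe sets, 23521 carry 1 gene symbol in the platform annotation. Current symbols came from matching Entrez identifiers to the GRCm38.p6 gene table (23328 matched). Each gene was represented by its one-gene probe set with the highest mean, without a filter, giving 22180 genes. Differences were fitted in limma 3.58.1 under R 4.3.3 (castrated minus sham, no covariate, Benjamini-Hochberg over all genes, threshold 0.05). Array values are given for the 12 genes with the smallest p, the gene with the smallest p of each factor group, and 14 measured genes of a fixed set of 17. Array values of other genes were chosen after their values were seen. Members and lists were chosen with earlier results of these data known. Alternatives were other normalizations, level filters, probe set rules, variance priors, array weights, a replicate block and leaving out samples. In a test on simulated arrays of the castrated and sham groups, where 200 of 22180 genes had been changed, limma recovered 24% of genes changed by 0.5 and 76% of those changed by 1, with 1 false call.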

Additional observations from a re-analysis of the deposited data

How the results depend on the processing

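No initiation factor gene passed the adjusted threshold of 0.05 under any alternative run, nor at thresholds of 0.10 and 0.25. The smallest adjusted p was 0.162 with the filter at the 50th percentile. The number at an unadjusted p under 0.05 ran from 2 (without castrated sample 1) to 7 (without sham sample 3). Over all 22180 genes it was 1326 and 1525 in these settings. The number whose groups did not overlap ran from 12 to 18 with a sample left out. It was 9 after quantile normalization and 8 after cyclic loess, and no share over all genes was taken for these counts. The median over the genes ran from −0.098 to −0.059 with a sample left out and was −0.10 after median centring. The cause of these moves was not tested. The replicate numbers do not pair the samples (correlations of deviations 0.033 to 0.076). With the number as a replicate block 0 genes passed and 5 had an unadjusted p under 0.05, as without it.

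Of 781 values of the 49 genes under alternatives, 737 kept their direction and 44, in 17 genes, did not. Level filters, the replicate block and the changes of variance prior leave a difference as it was, so their values could not turn. Averaging probe sets could move only the 3 genes with more than 1 probe set. The count of 737 therefore overstates how firm the directions are. After quantile normalization and cyclic loess the values were 0.0053 and 0.0029 for the eIF2 group, 0.032 and 0.037 for the eIF4E group and for Eif4e3, 0.015 and 0.028 for Eif1b, 0.011 and 0.027 for Eif3k, 0.011 and 0.012 for Eif4h, and 0.0097 and 0.018 for Eif5a. Cyclic loess gave 0.0054 for accessory and 0.00076 for mTORC1 and MNK genes. Median centring gave −0.0083 for Eif2d, and array weights gave −0.0032 for Eif3h and 0.012 for Eif4e3. With a sample left out, group medians ran from −0.052 to 0.0064 (eIF2), −0.069 to 0.049 (eIF4E), −0.098 to 0.038 (eIF5), −0.056 to 0.0088 (accessory) and −0.051 to 0.012 (mTORC1 and MNK). Single genes that turned with a sample left out ran from −0.099 to 0.070 (Eif1b), −0.013 to 0.11 (Eif2a), −0.038 to 0.10 (Eif2ak1), −0.028 to 0.10 (Eif2ak4), −0.025 to 0.056 (Eif2d), −0.20 to 0.038 (Eif2s3y), −0.12 to 0.014 (Eif3d), −0.063 to 0.082 (Eif3h), −0.064 to 0.065 (Eif3k), −0.015 to 0.34 (Eif4a3), −0.014 to 0.084 (Eif4e), −0.069 to 0.049 (Eif4e3), −0.018 to 0.082 (Eif4g3), −0.065 to 0.0080 (Eif4h), −0.018 to 0.092 (Eif5), −0.15 to 0.056 (Eif5a) and −0.18 to 0.075 (Eif5a2). The alternatives for the pathway lists were added after seeing the data.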
